A study of Homo sapiens with 8 samples.

Results

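NKD1, NKD2, AXIN2, DKK1, DKK3, WNT5A, WNT7A, WNT7B, WNT10A and LEF1 are 10 genes of the WNT pathway, taken by symbol from the 56638 gene symbols in each of 2 tables of read counts. They were chosen by their levels and log2 fold changes in the same contrasts, known from earlier work on these data. Their values, and whether they passed a threshold, are therefore given as a description and not as evidence. RNA was sequenced from SCC25, an established squamous carcinoma line of the tongue, after knockdown of the transcription factor ETS1. The 4 groups held 2 libraries each. Cells transfected with a pool of siRNAs against ETS1 (ETS1 siRNA) were set beside cells given a non-targeting siRNA (siRNA control), and cells carrying a lentiviral hairpin against ETS1 (shETS1) beside cells with a non-targeting hairpin (shCON). Both hairpin lines had been through puromycin selection, shETS1 came from a single hairpin construct, and all groups were grown with serum and hydrocortisone. The time from transfection or selection to harvest is not given in the sources used here.

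WNT proteins are secreted ligands that bind Frizzled receptors and, for the β-catenin branch, the co-receptors LRP5 and LRP6. Binding inactivates a cytoplasmic complex built on AXIN and APC that otherwise sends β-catenin for degradation, and the β-catenin that accumulates acts with DNA-binding factors of the TCF/LEF family. The branch is under negative feedback: AXIN2, NKD1 and DKK1 are common targets of β-catenin and restrain the signal that induces them. In squamous epithelium WNT signaling takes part in the balance between stem cells and differentiation.

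The siRNA libraries had 15954616 to 20469763 counts and the shRNA libraries 23834078 to 25953213, and replicates of each group differed by more than sampling noise (chi-square per degree of freedom 6.23 to 23.2). ETS1 stood at 288 and 248 CPM (counts per 1000000 of the TMM-scaled library size) in siRNA control and at 17.4 and 13.2 CPM in ETS1 siRNA. The shCON libraries had 82.3 and 72.1 CPM of it and the shETS1 libraries 9.76 and 11.1, so that in each table the targeted gene matched the labels. Epithelial genes (KRT5, KRT14, KRT6A, TP63, DSG3, CDH1 and EPCAM) summed to at least 13900 CPM in every library, which matched the label of a squamous line. Their sum was 13900 to 18400 CPM in siRNA control and 20900 to 24800 CPM with ETS1 siRNA, then 14900 to 15000 CPM in shCON and 24700 to 25000 CPM in shETS1. After siRNA 0 of the 7 were called, and TP63 and EPCAM were lower on average. After shRNA 4 of the 7 (KRT5, KRT14, KRT6A and DSG3) were called higher and 2 (TP63 and EPCAM) lower. The shares over all genes after shRNA were 29.7% higher and 30.9% lower. Of the other cell types checked, the endothelial genes PECAM1, CDH5 and VWF summed to at most 0.756 CPM, with PECAM1 at 0 in every library. CD14, of blood monocytes, was counted at 0.756 to 3.49 CPM, while PTPRC and CD3E, also of blood cells, had no count in the siRNA libraries and at most 0.479 and 0.0436 CPM in the shRNA libraries. The sum over 8 fibroblast genes was 255 to 281 CPM in shCON and 2140 to 2230 CPM in shETS1. There 6 of 6 tested genes were called higher, beside 29.7% of all genes. In the siRNA table the sum was 187 to 217 CPM in the control and 289 to 337 CPM in the knockdown. Of the 8 genes tested there, 1 was called higher (COL1A1, from a mean of 134 to 224 CPM), and PDGFRB and THY1 were lower on average. In bulk RNA, fewer cells of a type and less RNA per cell cannot be told apart.

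The tables also differed in composition: 5 structural RNAs took at most 0.00339% of counts in the siRNA libraries, 5.61% and 6.63% in shCON, and 12.3% and 9.64% in shETS1. CPM values were scaled within each table. A difference in level between an siRNA and an shRNA library therefore cannot be told apart from a difference in how the tables were made, and each knockdown is read against its own control.

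**Figure D1:**
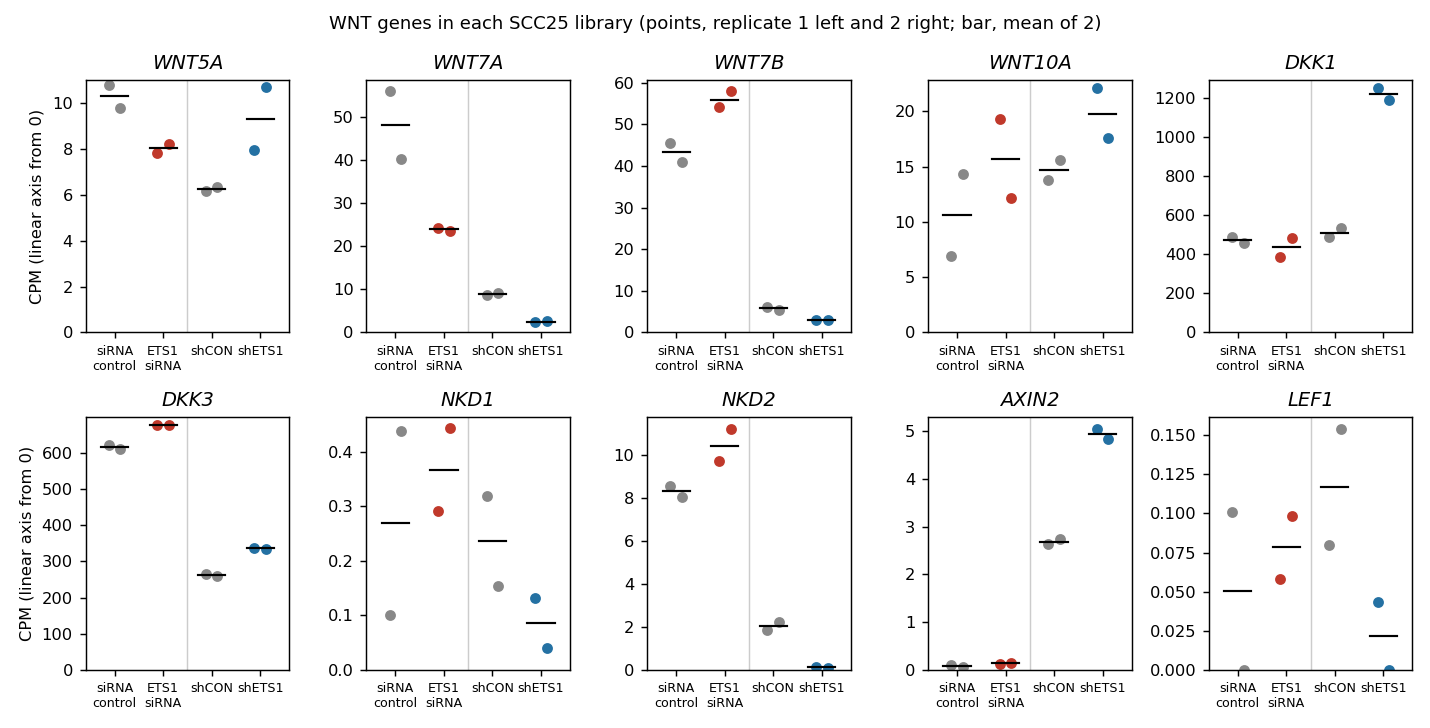
Level of each of the 10 WNT genes in the 8 libraries, in CPM on a linear axis from 0 that differs between panels. Points are libraries (gray, controls; red, ETS1 siRNA; blue, shETS1), the bar is the mean of 2, and DKK1 in shETS1, at 1250 and 1190 CPM, stands above shCON, at 486 and 533 CPM.

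The 4 WNT ligands did not move together. WNT7A was lower in both knockdowns, WNT10A was higher on average in both, and WNT5A and WNT7B went opposite ways in the siRNA and the shRNA table. Of the siRNA changes of these 4, only that of WNT7A passed the threshold described below.

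WNT7A (chr3:13857755-13921568, minus strand, GRCh37) encodes a ligand of epithelia. The siRNA control libraries had 55.9 and 40.2 CPM and the ETS1 siRNA libraries 24.3 and 23.6 CPM. Against 8.59 and 9.17 CPM in shCON, shETS1 had 2.48 and 2.54 CPM. All knockdown libraries lay below their controls, and the spread was widest in siRNA control. The level was 2.01-fold lower after siRNA (log2 fold change -1.01, SE 0.17) and 3.53-fold lower after shRNA (log2 fold change -1.82, SE 0.16). Without siRNA control replicate 1 the siRNA value was -0.75 and did not pass the threshold described below.

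WNT7B (chr22:46316246-46373042, minus strand), which encodes the closest relative of WNT7A, had 45.5 and 41.0 CPM in siRNA control and 54.1 and 58.0 CPM in ETS1 siRNA. In the shRNA table it had 6.09 and 5.47 CPM in shCON and 3.09 and 2.93 CPM in shETS1. The groups did not overlap in either table, with the knockdown above its control after siRNA and below it after shRNA. The log2 fold change was 0.37 (SE 0.12) after siRNA and -0.94 (SE 0.17) after shRNA.

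WNT5A (chr3:55499743-55524567, minus strand) encodes a ligand best known for signaling without β-catenin. Its level was 10.8 and 9.79 CPM in the control siRNA libraries, against 7.85 and 8.23 CPM with ETS1 siRNA. It was 6.17 and 6.36 CPM in shCON, against 7.97 and 10.7 CPM with the ETS1 hairpin. Here too the groups did not overlap, but the knockdown was the lower group after siRNA (log2 fold change -0.36, SE 0.17) and the higher after shRNA (0.58, SE 0.15). The shRNA value rested unevenly on the shETS1 libraries: it was 0.76 without replicate 1 and 0.35 without replicate 2.

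WNT10A (chr2:219745574-219764303, plus strand), a ligand of skin, hair and teeth, was counted at 6.90 and 14.3 CPM in siRNA control and at 19.3 and 12.2 CPM in ETS1 siRNA. These groups overlapped. In the shRNA table it had 13.8 and 15.6 CPM in shCON and 22.1 and 17.6 CPM in shETS1, without overlap. The log2 fold change was 0.58 (SE 0.34) after siRNA and 0.43 (SE 0.12) after shRNA. The siRNA value was 0.14 without siRNA control replicate 1, 1.19 without siRNA control replicate 2, 0.22 without ETS1 siRNA replicate 1 and 0.88 without its replicate 2. The shRNA value was 0.25 without shETS1 replicate 1, and in one fit of all 8 libraries, which gave it an SE of 0.28, it did not pass the threshold.

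DKK1 was higher in the stable knockdown and overlapped its control after siRNA, and DKK3 shifted little in either table. DKK1 (chr10:54074041-54077802, plus strand) encodes a secreted inhibitor that binds LRP5 and LRP6. It was counted at 487 and 458 CPM in siRNA control and at 388 and 482 CPM in ETS1 siRNA, where the groups overlapped. In the shRNA table it rested at 486 and 533 CPM in shCON and reached 1250 and 1190 CPM in shETS1. The log2 fold change was -0.12 (SE 0.14) after siRNA, -0.29 without ETS1 siRNA replicate 2 and 0.03 without its replicate 1. It was 1.26 (SE 0.08) after shRNA, which is 2.39-fold higher.

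DKK3 (chr11:11977754-12031316, minus strand), a divergent secreted member of the Dickkopf family, had 623 and 611 CPM in siRNA control, against 679 CPM in each ETS1 siRNA library. The shCON libraries had 265 and 260 CPM and the shETS1 libraries 338 and 335 CPM. Replicates lay close together and the knockdown was above its control in both tables, but the shifts were small, with a log2 fold change of 0.14 (SE 0.11) after siRNA and 0.36 (SE 0.07) after shRNA. The shRNA value was 0.23 when libraries were scaled by their totals only, a scaling that moved the median over all genes by -0.12 in the shRNA table. Of the annotated exonic bases of DKK3, 57.2% lie opposite USP47, and the use of strand in counting is not given in the sources used here, so reads of these genes may not be separable. DKK1 shares 12.6% of its exonic bases with PRKG1-AS1 on the opposite strand.

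The bases upstream of the start sites of DKK1 and WNT7A are shown because these were the genes with the largest rise in level, in CPM, and with the lower level in both tables. Capitals mark the TCF/LEF core (CTTTGA, or TCAAAG on the other strand), the letters to which TCF/LEF factors bind. The sequences are 250 bases each from RefSeq (GRCh38.p14), read in the direction of the gene, at chr10:52314031-52314280 (plus strand) for DKK1 and chr3:13880072-13880321 (minus strand) for WNT7A.
DKK1: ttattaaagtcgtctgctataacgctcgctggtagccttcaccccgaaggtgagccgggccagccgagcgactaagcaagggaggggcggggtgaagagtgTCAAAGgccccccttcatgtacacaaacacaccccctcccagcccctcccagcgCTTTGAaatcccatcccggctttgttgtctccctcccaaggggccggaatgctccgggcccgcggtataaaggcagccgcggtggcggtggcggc
WNT7A: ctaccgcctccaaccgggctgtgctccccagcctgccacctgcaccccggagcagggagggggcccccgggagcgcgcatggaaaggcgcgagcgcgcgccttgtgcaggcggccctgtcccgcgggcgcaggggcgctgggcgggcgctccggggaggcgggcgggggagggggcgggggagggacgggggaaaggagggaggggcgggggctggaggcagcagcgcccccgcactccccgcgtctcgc

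DKK1 held 2 TCF/LEF cores, with their first bases at -149 (reverse strand) and -95 (forward strand) from the start site. Windows of 300 bases, 250 before and 50 after the start, were found for 6 of the 10 genes (DKK1, LEF1, NKD2, WNT10A, WNT5A and WNT7A), 7 windows in all, and only that of DKK1 held the core. Of all 35116 promoter windows, 12.9% held it on either strand. The only string searched for ETS factors (CCGGAAG, or CTTCCGG on the other strand) was in none of the 7 windows and in 10.3% of all windows. Shorter or variant ETS strings were not searched, so the windows may hold them. A match is a string of letters and not a measured site, and its absence says only that these letters are not in the window. NKD1, AXIN2, DKK3 and WNT7B had no entry.

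The intracellular inhibitors NKD1, NKD2 and AXIN2 had at most 227 counts in any library, and NKD2 and AXIN2 went opposite ways in the stable knockdown. NKD2 (chr5:1008917-1039058, plus strand) encodes a cytoplasmic inhibitor that binds Dishevelled. It had 170 and 129 counts (8.56 and 8.04 CPM) in siRNA control and 167 and 227 counts (9.72 and 11.2 CPM) in ETS1 siRNA. In the shRNA table it had 46 and 58 counts (1.83 and 2.24 CPM) in shCON, and only 3 and 2 counts (0.131 and 0.0793 CPM) in shETS1. The siRNA groups did not overlap, with the knockdown slightly higher (log2 fold change 0.33, SE 0.17). After shRNA the level was lower by a ratio of 19.6, with a 95% interval of 8.14 to 61.7 that covers counting error only. The fitted log2 fold change of -4.23 (SE 0.46) depends on the prior count added to so few reads.

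AXIN2 (chr17:63524681-63557766, minus strand) encodes a scaffold of the complex that degrades β-catenin. It had 2 and 1 counts in siRNA control and 2 and 3 in ETS1 siRNA, too few to test, with a knockdown-to-control ratio of 1.60 (95% counting interval 0.31 to 10.3). In the shRNA table it had 66 and 71 counts (2.63 and 2.74 CPM) in shCON and 116 and 122 counts (5.05 and 4.84 CPM) in shETS1. The shRNA groups did not overlap, and the level in shETS1 was 1.84-fold that in shCON (log2 fold change 0.88, SE 0.18). Of the exonic bases of AXIN2, 30.9% are also annotated to another protein-coding gene on the same strand (ENSG00000266076).

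NKD1 (chr16:50582307-50683160, plus strand), the paralog of NKD2, never passed the filter on low counts. It had 2 and 7 counts with the control siRNA and 5 and 9 with the ETS1 siRNA, then 8 and 4 counts with the control hairpin and 3 and 1 with the ETS1 hairpin. The siRNA groups overlapped, and the shETS1-to-shCON ratio of 0.353 had a counting interval of 0.0831 to 1.17, so that no difference was detectable at this depth.

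LEF1 (chr4:108968701-109090112, minus strand), the DNA-binding partner of β-catenin, was close to absent from the counts. The control siRNA libraries had 2 and 0 counts and the ETS1 siRNA libraries 1 and 2, while shCON had 2 and 4 counts against 1 and 0 for shETS1. A count of 0 allows up to 0.187 CPM in siRNA control replicate 2 and up to 0.119 CPM in shETS1 replicate 2, and the highest level of LEF1 in any library was 0.154 CPM. The ratio was 1.44 (0.164 to 17.2) after siRNA and 0.177 (0.00384 to 1.46) after shRNA.

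**Figure D2:**
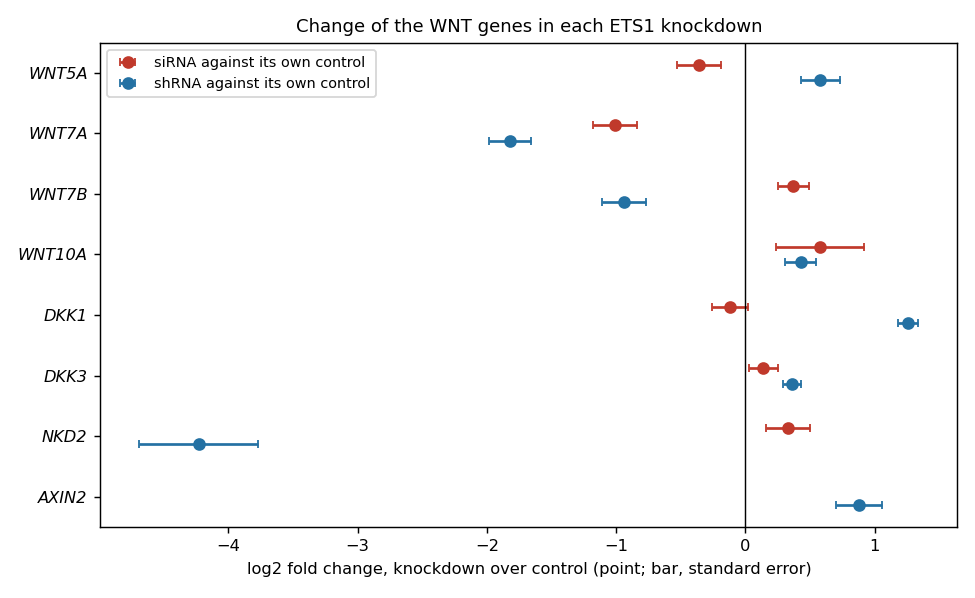
Log2 fold change of each WNT gene in the knockdown over its own control (points) with its standard error (bars), red after siRNA and blue after shRNA, for the 8 genes that passed the filter in a table. WNT7A lies left of 0 in both. WNT5A, WNT7B, NKD2 and DKK1 lie on opposite sides, with DKK1 after siRNA (-0.12, SE 0.14) within its standard error of 0. NKD2 after shRNA, at -4.23, rests on 5 counts in shETS1.

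A gene was called at an adjusted p under 0.1 in edgeR's quasi-likelihood F-test, with Benjamini-Hochberg adjustment over all genes that passed the filter. After siRNA, 7 of the 10 genes passed the filter, and WNT7A alone was called, as lower, where the share called over all 14742 genes was 2.27% lower and 1.13% higher. After shRNA, 8 of the 10 passed the filter, of which 5 were called higher (AXIN2, DKK1, DKK3, WNT5A and WNT10A) and 3 lower (NKD2, WNT7A and WNT7B). Over all 16481 genes the shares were 29.7% higher and 30.9% lower, so that most genes tested were called in that table. In other settings of the siRNA fit, WNT10A was also called higher when no gene was filtered out and when siRNA control replicate 2 was left out, and WNT7B in one fit of all 8 libraries. These contrasts chose the genes, and nothing is read from their counts. The median log2 fold change of those that passed the filter was 0.14 after siRNA and 0.39 after shRNA. It describes genes chosen by these same values and is not compared with all genes. Neither NKD1 nor LEF1 could be tested in either table.

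Per kilobase of canonical transcript, DKK1 and DKK3 were the highest of the 10 genes in every group. DKK1 stood at 262 and DKK3 at 244 CPM per kb in siRNA control, and their order was the reverse in ETS1 siRNA, with DKK3 at 269 and DKK1 at 241. DKK1 led in shCON, at 282 against 104 CPM per kb, and in shETS1, at 676 against 133. The replicates of the pair did not overlap in any group.

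The ligands came next. In siRNA control WNT7A (12 CPM per kb) and WNT7B (11) overlapped and stood above WNT10A (5.16), which overlapped NKD2 (3.80), and above WNT5A (1.76). In ETS1 siRNA WNT7B (14.2) led, and WNT10A (7.66) and WNT7A (6) overlapped. In shCON the order was WNT10A (7.15), WNT7A (2.23), WNT7B (1.46) and WNT5A (1.07), without overlap. In shETS1 WNT10A (9.66) was followed by WNT5A (1.60), with AXIN2 (1.16) above WNT7B (0.762) and WNT7A (0.629), again without overlap. Within the shRNA table, WNT7A stood below WNT10A alone among the 4 ligands in shCON and below the other 3 in shETS1.

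The remainder of the pathway was described with 97 other genes in 7 lists taken from general knowledge of the pathway. After siRNA, 71 of them were tested, of which 4 were called higher and 3 lower, beside 1.13% and 2.27% over all genes. An unadjusted p under 0.05 was reached by 24 of the 71, beside 2721 of all 14742 genes, and the median log2 fold change was 0.10. After shRNA, 72 were tested, 14 were called higher and 35 lower, beside 29.7% and 30.9% over all genes, and the median was -0.30, beside 0 over all genes. The counts per list after shRNA below are to be read against these shares.

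**Figure D3:**
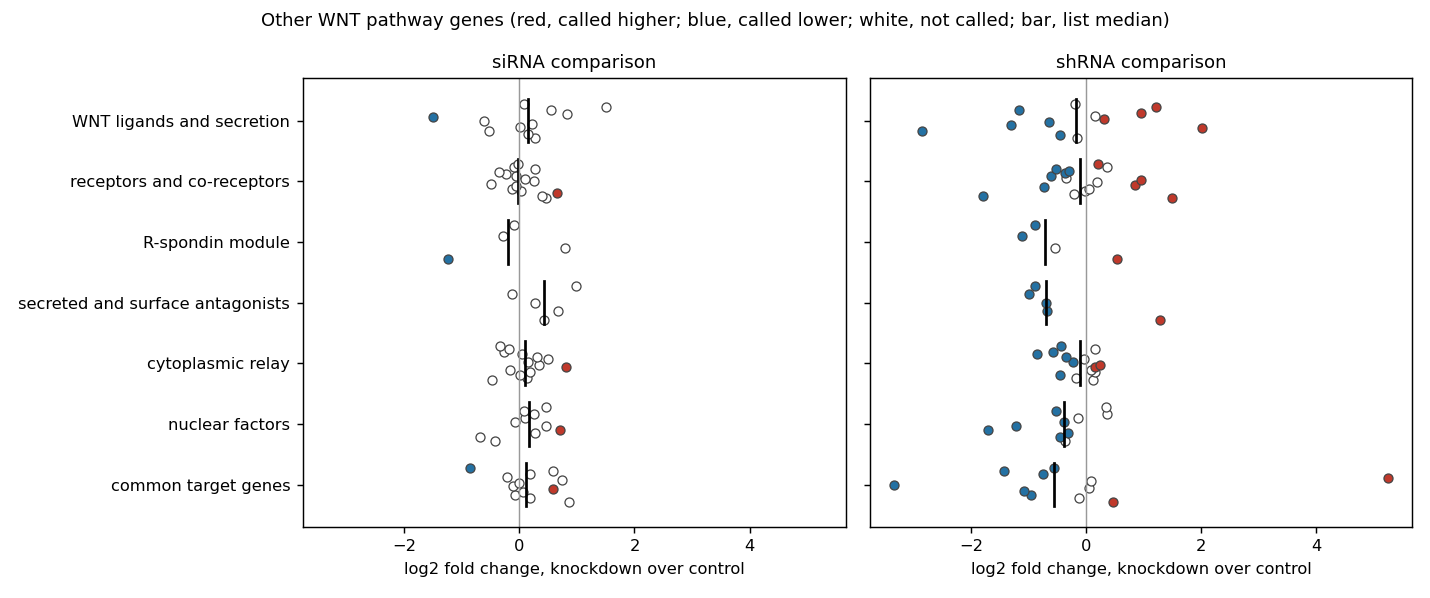
Log2 fold change (horizontal axis) of the other WNT pathway genes in 7 lists (rows) after siRNA (left) and after shRNA (right). Each point is a tested gene (red, called higher; blue, called lower; white, not called) and the bar is the list's median; after shRNA 14 points are red and 35 blue, against 4 and 3 after siRNA.

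After siRNA, the called genes were spread over 6 of the lists, and of 5 tested antagonists 0 were called by edgeR, with 3 at an unadjusted p under 0.05 and 1 called higher by DESeq2. CTNNB1, which encodes β-catenin, rose from 173 and 196 CPM in siRNA control to 312 and 337 CPM in ETS1 siRNA (log2 fold change 0.81, SE 0.13, edgeR adjusted p = 0.031). LGR4, a receptor for R-spondins, which amplify WNT signals, fell from 38.8 and 35.8 to 17.6 and 13.9 CPM (log2 fold change -1.24, SE 0.16, adjusted p = 0.014). WNT3A, a ligand of the β-catenin branch, fell from 4.48 and 6.67 to 1.57 and 2.32 CPM (-1.5, SE 0.30, edgeR adjusted p = 0.064). DESeq2 called 0 of the ligands and secretion factors after siRNA, WNT3A included. In each gene called after siRNA the knockdown libraries lay outside the range of their controls. The same held for uncalled genes such as GSK3A and CD44, so this separation does not set the called genes apart. TNFRSF19, a receptor encoded by a β-catenin target gene, also fell (-0.86, SE 0.15, adjusted p = 0.042). FZD2, a Frizzled receptor (0.66, adjusted p = 0.092), TCF7, a TCF/LEF factor (0.70, adjusted p = 0.083), and the target gene EPHB3 (0.58, adjusted p = 0.093) rose. Without siRNA control replicate 1, none of the 4 rises was called and TNFRSF19 was lost, with 2 genes then called lower. Without siRNA control replicate 2, WNT3A, TCF7 and EPHB3 were not called, and without ETS1 siRNA replicate 2, FZD2 and TCF7 were not. Without ETS1 siRNA replicate 1, 7 genes were called lower.

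After shRNA, the other ligands and secretion factors went both ways, with 4 of 12 tested called higher and 5 lower by edgeR, and 2 higher and 4 lower by DESeq2. WNT11 rose from 0.636 and 0.463 CPM in shCON to 2.27 and 2.18 CPM in shETS1 (log2 fold change 2.01, SE 0.31, edgeR adjusted p = 2.9e-05), and WNT4 rose by 0.96 (SE 0.13, adjusted p = 7.5e-06). WNT10B, the paralog of WNT10A, fell from 1.91 and 2.62 to 0.349 and 0.277 CPM (log2 fold change -2.84, SE 0.36, adjusted p = 3.7e-06). WNT10A and WNT10B thus went opposite ways in the same libraries. Of 16 tested receptors and co-receptors, 4 were called higher and 6 lower by edgeR, and 4 higher and 5 lower by DESeq2. The rises included FZD1, from 27.1 and 27.7 to 76.7 and 78.3 CPM (1.5, SE 0.08, adjusted p = 6.8e-11), FZD8 (0.96, adjusted p = 1.3e-07) and FZD6 (0.85, adjusted p = 1.3e-07).

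All 5 tested antagonists were called by edgeR after shRNA, 1 higher and 4 lower, of 17 in the list. DESeq2 called 0 higher and 4 lower. The gene called higher by edgeR, APCDD1, had 11 and 8 counts in shCON and 25 and 19 in shETS1. SFRP1, a secreted protein that binds WNT ligands, fell from 395 and 390 CPM to 198 and 196 CPM (log2 fold change -0.99, SE 0.07, edgeR adjusted p = 5.0e-09). TRABD2A, a membrane protease that inactivates WNT ligands (-0.88, adjusted p = 1.8e-07), and KREMEN1, a co-receptor for Dickkopf proteins (-0.68, adjusted p = 4.0e-06), fell as well. DKK1, the secreted inhibitor described above, was higher in the same shETS1 libraries. Of the R-spondin module, RNF43 and ZNRF3, ubiquitin ligases that remove Frizzled receptors from the surface, fell (-1.12, adjusted p = 3.3e-07, and -0.88, adjusted p = 1.1e-06), while LGR4 rose (0.54, adjusted p = 1.9e-05). Of the exonic bases of RNF43, 69.7% are also annotated to another gene on the same strand.

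In the cytoplasm, 2 of 14 tested relay genes were called higher and 6 lower after shRNA. The latter included GSK3A and GSK3B, the kinases that mark β-catenin for degradation (log2 fold change -0.85, edgeR adjusted p = 3.4e-05, and -0.58, adjusted p = 9.7e-05), and AXIN1, the constitutive relative of AXIN2 (-0.46, adjusted p = 0.00015). AXIN1 and AXIN2 thus differed in direction. In the nucleus, 6 of 10 tested factors were called, each of them lower, beside 30.9% of all genes called lower, and DESeq2 called 4. Of the 6, TCF7L2 and BCL9L had groups that overlapped. TCF7 fell from 7.12 and 6.51 CPM to 1.92 and 2.26 CPM (-1.70, SE 0.18, adjusted p = 4.4e-07), TLE3, a co-repressor, fell by 0.53 on the log2 scale (adjusted p = 0.00046), and TCF7L1 fell by 1.22 (adjusted p = 0.0064). Without shCON replicate 1 TCF7L1 was not called, with an adjusted p of 0.11.

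Genes commonly used as readouts of β-catenin went both ways after shRNA: 2 of 11 tested were called higher and 6 lower, beside 29.7% and 30.9% of all genes. DESeq2 called 1 higher and 5 lower. MMP7, a secreted protease, rose from 5.45 and 5.28 CPM to 213 and 191 CPM (log2 fold change 5.24, SE 0.10, edgeR adjusted p = 5.0e-16). FOSL1, a subunit of the AP-1 transcription factor, fell from 23.0 CPM in each shCON library to 2.44 and 2.14 CPM (-3.33, SE 0.14, adjusted p = 3.1e-12), and the receptor gene EPHB2 fell by 1.07 (adjusted p = 1.5e-08). Of the 10 genes, AXIN2 and DKK1 are also such readouts and were higher in shETS1, with NKD1 too low to compare.

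Whether a gene responded differently to the kinds of knockdown was tested for the other pathway genes, in one fit of 8 libraries. The tested value was the shRNA log2 fold change minus the siRNA log2 fold change. This fit took the same spread per gene in both tables, although the tables differed in it. The common dispersion in edgeR was 0.0192 for siRNA, 0.00402 for shRNA and 0.0109 in the fit of 8 libraries. Of 75 tested genes, 8 were called with a higher effect after shRNA and 33 with a lower one, where 15.1% and 19.7% of all 17190 genes were called. On the lower side were all 5 called antagonists, 4 of 6 called ligands and secretion factors, 5 of 8 receptors and co-receptors, 3 of 4 in the R-spondin module, 6 of 7 relay genes, all 4 nuclear factors and 6 of 7 target genes. SFRP1 differed by -1.29 (SE 0.13, edgeR adjusted p = 0.00012), TCF7 by -2.42 (SE 0.21, adjusted p = 4.6e-05) and LGR4 by 1.77 (SE 0.17, adjusted p = 7.3e-05). The kind of knockdown cannot be told apart from the other differences between the tables. Of the 68 genes tested in both tables, 4 were called in both: TNFRSF19 was lower and CTNNB1 higher in each, while LGR4 and TCF7 were called in opposite directions. The shRNA changes of TNFRSF19 (-0.56, edgeR adjusted p = 0.08) and CTNNB1 (0.16, adjusted p = 0.084) were near the threshold. Their siRNA calls were lost with the replicate number as a block, and the effects on CTNNB1 differed by -0.67 (adjusted p = 0.0047).

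**Figure D4:**
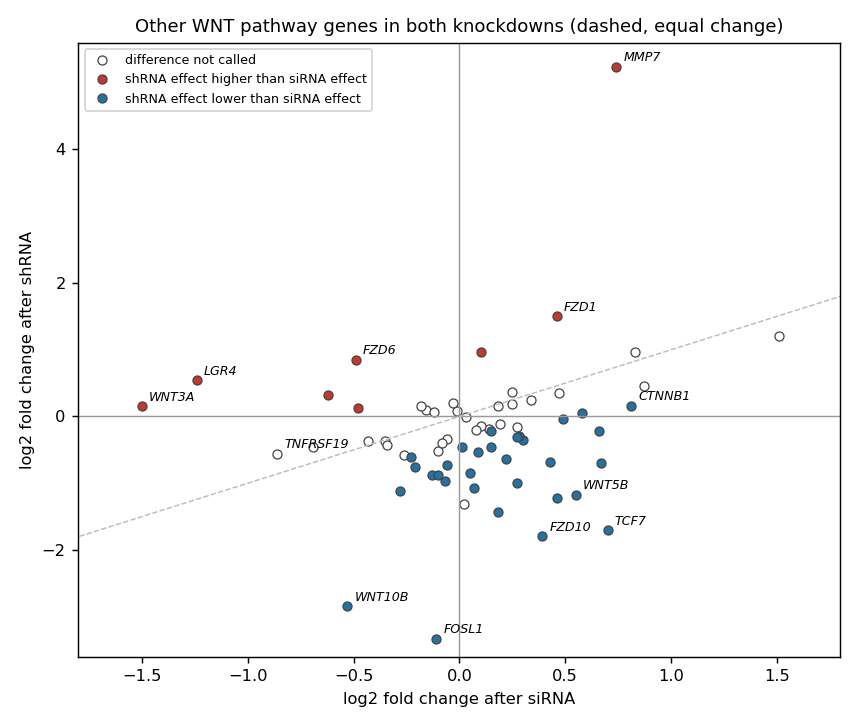
Log2 fold change after siRNA (horizontal axis) and after shRNA (vertical axis) of the 68 other WNT pathway genes tested in both tables; the dashed line marks equal change. Red and blue points are genes whose shRNA effect was called higher or lower than their siRNA effect; LGR4 sits at -1.24 and 0.54, and TCF7 at 0.70 and -1.70.

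The fibroblast and epithelial genes moved with the shRNA comparison in which DKK1, DKK3, WNT5A, WNT10A and AXIN2 were higher. COL3A1, DCN and LUM, matrix genes that lead that list, were higher by 3.54, 3.29 and 2.95 on the log2 scale, and THY1 and PDGFRB were too low to test in these libraries. The share of structural RNAs was also higher in shETS1 than in shCON. When structural and mitochondrial RNAs were removed before scaling, the calls for the 10 genes did not change. The part that the fibroblast and epithelial genes play in the levels of the 10 genes was not tested.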

How the data were processed

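The authors prepared TruSeq RNA libraries from SCC25 cells, and sequenced them from one end. TopHat2 2.1.1 with Bowtie2 2.2.6 placed the reads on GRCh37, and featureCounts 1.5.0 counted them per Ensembl gene. The deposited values are raw counts per gene symbol, in a table for each knockdown. Whether strand or multiply mapped reads were used is not given in the sources used here. The methods call the siRNA replicates biological and do not say so of the shRNA replicates, so that p-values measure the spread between these libraries, which may be technical.

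The libraries of a knockdown and of its control were fitted alone (4 per fit) with edgeR 4.0.16 in R 4.3.3, by its quasi-likelihood F-test (two-sided), with TMM scaling, filterByExpr, no covariate and Benjamini-Hochberg adjustment over all genes kept, called at an adjusted p under 0.1. Each standard error was the log2 fold change over the square root of F. Intervals of count ratios are exact, at 95%, and cover counting error only. A count of 0 was taken to allow 3 counts.

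The 10 genes and the lists were chosen with earlier results of these data known. The 10 genes went through the same F-test as all genes, but these contrasts chose them, so their values and calls are a description. Besides them and ETS1, up to 3 called genes of each list with the smallest adjusted p and a mean of at least 1 CPM were named per comparison. A few others were named after their values were seen, to describe matrix genes, overlaps and a call that rests on few counts. All 10 genes and 97 pathway genes matched GENCODE v44 lifted to GRCh37, whose canonical transcripts gave the lengths. Alternatives were DESeq2 (1.42.0) and its size factors, library size only, removal of structural and mitochondrial RNAs, other filters, a threshold of 0.05, the replicate number as a block, one fit of 8 libraries, and leaving out each library.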

Additional observations from a re-analysis of the deposited data

Results flagged for a closer look

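NKD2, WNT5A and WNT7B were flagged because every library of one knockdown lay above its controls and every library of the other below. None of them was called in the siRNA fit. With 2 libraries a group such a separation is weak, and its share over all genes was not counted. The shRNA log2 fold change minus the siRNA one was -4.56 for NKD2, where it rests on few shETS1 counts, 0.94 for WNT5A and -1.31 for WNT7B. These differences were not tested, since the genes were chosen with their changes known.

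Another 21 genes were flagged because edgeR's test of the difference between the knockdown effects passed an adjusted p of 0.1. Among ligands and secretion factors the difference, shRNA minus siRNA on the log2 scale, was -1.75 for WNT5B, -2.33 for WNT10B and -0.63 for WLS. Among receptors it was 1.32 for FZD6, 1.02 for FZD1 and -2.20 for FZD10, and in the R-spondin module 1.77 for LGR4, -0.81 for ZNRF3 and -0.86 for RNF43. Among antagonists it was -1.29 for SFRP1, -1.12 for KREMEN1 and -0.77 for TRABD2A. Relay genes gave -0.91 for GSK3A, -0.67 for CTNNB1 and -0.67 for DVL3, and nuclear factors -2.42 for TCF7, -1.70 for TCF7L1 and -0.64 for TLE3. Among target genes it was -3.24 for FOSL1, -1.16 for EPHB2 and -1.63 for PPARD. These 21 are the genes with the smallest adjusted p and a mean of at least 1 CPM in each list, up to 3 a list, of 41 that passed. Those that passed beyond them include genes of the opposite sign, such as MMP7 (4.46, adjusted p = 0.00095) among target genes and WNT3A (1.63, adjusted p = 0.019) and WNT3 (0.92, adjusted p = 0.016) among ligands. For the 21 genes the adjusted p was at most 0.015, and all 21 kept their calls under every alternative that could be computed. Each of these alternatives also took the same spread per gene in both tables. The kind of knockdown and the way each table was made cannot be told apart in the 21 genes.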

How the results depend on the processing

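The shRNA counts of other pathway genes ranged over 13 alternatives from 10 to 15 higher and from 30 to 40 lower, and the counts for the difference between knockdowns over 16 from 7 to 9 higher and from 26 to 35 lower, all within 1.5 times the reported counts. The siRNA counts, 4 higher and 3 lower, were less firm. They were 10 and 6 without a filter on low counts and 12 and 6 in one fit of all 8 libraries, and 1 gene was higher at an adjusted p under 0.05. Leaving out single libraries gave 0 to 6 higher and 2 to 7 lower. With the replicate number as a block, 0 were higher and 1 lower. In the siRNA table same-numbered libraries deviated in opposite directions (r = -0.57 over 14742 genes). A block by number therefore does not follow the deviations there. In the shRNA table r was -0.13 over 16481 genes, and the labels give the libraries no more than a number. The block changed the calls over all genes from 502 to 97 after siRNA, from 9988 to 9173 after shRNA and from 5974 to 4264 for the difference. Of the named genes, 1 of 7 siRNA calls (LGR4), 20 of 21 shRNA calls and 21 of 21 differences were kept under all alternatives that gave a value, and no named call reversed. Depth limits NKD1, LEF1 and, in the siRNA table, AXIN2, with at most 9 counts per library.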
